A study of Homo sapiens with 36 samples.

Results

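Cholesterol synthesis and its sterol control were described through 29 genes of the 58721 rows in the count matrix, picked by gene symbol. They were 18 synthesis enzymes (ACAT2, HMGCS1, MVK, PMVK, MVD, IDI1, FDPS, FDFT1, SQLE, LSS, CYP51A1, TM7SF2, MSMO1, NSDHL, HSD17B7, EBP, SC5D and DHCR7), 5 genes of SREBP control (INSIG1, INSIG2, SCAP, SREBF1 and SREBF2) and 6 genes of sterol transport and turnover (NPC1, NPC2, ABCA1, ABCG1, STARD4 and MYLIP). All 29 passed the filter on low counts. The enzymes with a slot in the pathway that are not in this set were not analysed here.

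The cells were H1, an established human embryonic stem cell line, labelled PERK KO or wild type and driven toward cardiomyocytes. PERK, encoded by EIF2AK3, sits in the membrane of the endoplasmic reticulum (ER) and slows translation when unfolded proteins build up there. Each genotype was sampled at days 0, 1, 2, 3, 5 and 10 with 3 replicates, which gave 36 bulk RNA-seq libraries in 12 groups. Both genotypes were grown undifferentiated in E8 medium and then switched to a cardiac medium that carried a chemically defined lipid concentrate, transferrin, ascorbic acid and selenite. To it were added the WNT activator CHIR99021 first, then the WNT inhibitor IWP2, with heparin over the first week and insulin after it. Differences of a later day from day 0 and the change of medium cannot be told apart. The labels name neither the edit nor the clones behind PERK KO, and do not say whether replicates were separate cultures, so p-values measure only the spread between these libraries.

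Cells make cholesterol from acetyl-CoA through the mevalonate pathway, squalene and lanosterol. When ER cholesterol is low, the escort SCAP carries SREBP transcription factors to the Golgi for cleavage, and the released SREBP-2 raises synthesis enzymes and uptake genes. INSIG proteins hold SCAP in the ER when sterols are plentiful, and INSIG1 is itself a SREBP target. Excess sterol activates LXR, which raises the exporters ABCA1 and ABCG1 and the ubiquitin ligase MYLIP.

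Libraries held 14002137 to 25860481 counts. Replicate 2 of PERK KO day 0 stood apart, with a mean counted transcript of 2028 nt where its group partners had 2838 and 2783 nt. Replicate 3 of wild type day 2 also stood apart: the chi-square of its counts against its partners was 81.8 and 76.6 times the degrees of freedom, while theirs with each other was 4.29 times. The wild type day 3 libraries also differed from one another, by 26.5, 34.5 and 95.6 times the degrees of freedom between pairs, most between replicates 1 and 3. EIF2AK3 was counted in all 36 libraries and was called in neither direction at any day (log2 fold changes -0.37 to 0.45, adjusted p 0.127 to 0.981), so its level does not check the label. In these bulk samples, fewer cells of a type and less RNA per cell cannot be told apart. The genotypes also differed in markers of cell type. At day 10 the summed level of 6 cardiomyocyte markers was 121 to 467 TPM in PERK KO and 10935 to 12634 TPM in wild type. For 7 endoderm and liver markers it was 650.1 to 1138 TPM in PERK KO and 3828 to 4770 TPM in wild type, and for 7 pluripotency markers 1079 to 1097 TPM in PERK KO and 197 to 253 TPM in wild type. Of these 3 lists no marker was at 0 in a whole day 10 group. The 5 neuroectoderm markers summed to 399.7 to 502 TPM in PERK KO and 1.42 to 2.14 TPM in wild type, where SOX1 was at 0. The 5 mesendoderm markers summed to 2.93 to 4.38 TPM in PERK KO and 72.4 to 80.9 TPM in wild type, with TBXT at 0 in both. The 5 endothelial and blood markers summed to 6.99 to 12.5 TPM in PERK KO and 101 to 151 TPM in wild type, with HBZ at 0 in both. The 5 stromal markers summed to 58.2 to 96.6 TPM in PERK KO and 881 to 1228 TPM in wild type. The part of cell type makeup in the differences reported here was not tested.

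On the length-corrected scale (TPM, mean over the 36 libraries), NPC2 stood highest at 631 TPM, followed by FDFT1 at 258, FDPS at 214, SREBF2 at 122 and EBP at 121 TPM. That mean covers wide shifts, since NPC2 group means ran between 158 TPM (wild type day 0) and 2216 TPM (wild type day 5). At day 0 NPC2 was not the highest: FDFT1 had 496, FDPS 334 and NPC2 289.8 TPM in PERK KO, and FDPS had 398, FDFT1 371 and NPC2 158 TPM in wild type. ABCA1 at 5.64, INSIG2 at 4.33 and ABCG1 at 2.58 TPM stood lowest. The other 21 members averaged between 17.5 TPM (STARD4) and 78.9 TPM (HMGCS1).

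The genotypes parted as differentiation went on. A gene was called when edgeR's quasi-likelihood test gave an adjusted p under 0.05. At day 0, 9 members were called higher and 2 lower in PERK KO, where 21.1% of all 19772 tested genes were called, 12.5% higher and 8.64% lower. At day 1, 2 members were higher and 2 lower (background 15.8%, of which 8.11% higher and 7.72% lower). Day 2 had 5 members higher and 10 lower (background 42.6%, of which 20.9% higher and 21.7% lower). From day 3 most members were lower in PERK KO: 19 at day 3 with 3 higher (background 45.1%, of which 21.9% higher and 23.2% lower), 22 at day 5 with 1 higher (background 59.0%, of which 28.6% higher and 30.5% lower), and 23 at day 10 with 0 higher (background 67.3%, of which 33.3% higher and 34.0% lower). The median member's log2 fold change, PERK KO over wild type, was 0.27, -0.08, -0.23, -0.62, -1.05 and -1.21 at days 0, 1, 2, 3, 5 and 10, while the median over all genes stayed between -0.03 and 0.03. Lower calls at all of days 3, 5 and 10 fell on 17 members, of which 12 were synthesis enzymes, and on 12.1% of all genes. For MVD, NPC1, FDFT1 and LSS among the 17 the day 3 call was lost without some single libraries, as given with each gene. INSIG2 and ABCA1 were called lower at no day.

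With both libraries that stood apart left out, the day 0 calls were 6 higher and 5 lower and the day 1 calls 5 higher and 4 lower, whereas day 3 had 23 lower, day 5 had 23 lower and day 10 had 25 lower. At day 1 this fit called 4931 of all genes, where the main fit called 3129. Its all-gene shares at the other days are not given here. At day 0 a fit of the 6 compared libraries alone called 1 member, beside 304 of all genes.

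**Figure D1:**
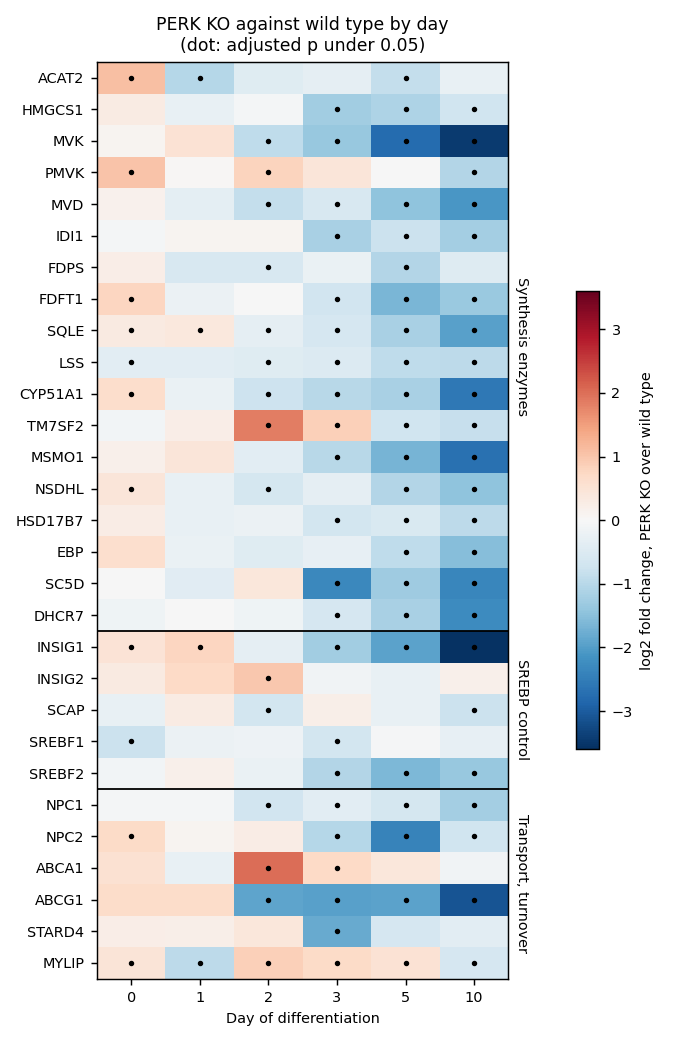
Log2 fold change of PERK KO over wild type for each of the 29 genes (rows, by class) at each day of differentiation (columns), red where PERK KO was higher and blue where it was lower, with a dot where the adjusted p was under 0.05. The lower calls gather at days 3, 5 and 10, with 19, 22 and 23 of 29 genes, while day 0 has 9 higher calls.

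Among the synthesis enzymes, 17 of 18 were lower in PERK KO at day 5 and 16 of 18 at day 10, with none higher (background 30.5% and 34.0% lower). The exceptions were PMVK at day 5 (log2 fold change -0.01 ± 0.29, adjusted p = 0.985) and, at day 10, ACAT2 (-0.27 ± 0.21, adjusted p = 0.280) and FDPS (-0.46 ± 0.21, adjusted p = 0.052). At day 3, 12 were lower and TM7SF2 was higher (background 23.2% lower and 21.9% higher). Day 2 had 7 lower, and PMVK and TM7SF2 higher (background 21.7% lower and 20.9% higher). The day 2 call of PMVK was lost without wild type replicate 1 or 2 or PERK KO replicate 2 or 3 (adjusted p 0.051 to 0.121). That of FDPS was lost without wild type replicate 3 (adjusted p = 0.170) or PERK KO replicate 1 or 3 (adjusted p = 0.099 and 0.063). A transcript length offset also lost it (-0.49, adjusted p = 0.052). The median log2 fold change of the 18 was 0.25, -0.24, -0.35, -0.62, -1.09 and -1.39 from day 0 to day 10. Errors of log2 fold changes are approximate SEs, the absolute value divided by the square root of the test's F.

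The mevalonate steps run from ACAT2, which joins acetyl-CoA units, through HMGCS1, MVK, PMVK and MVD to IDI1 and FDPS, which builds farnesyl diphosphate. MVK, mevalonate kinase (ENSG00000110921.13, GRCh38 chromosome 12, 109573255 to 109598117, plus strand), had the largest change of the enzymes. It had 10.7, 12.2 and 9.96 CPM in PERK KO at day 5, against 86.5, 69.7 and 70.0 CPM in wild type. Day 10 gave 13.8, 9.59 and 11.5 CPM in PERK KO and 101, 135 and 144 CPM in wild type. Every wild type library stood above every PERK KO library at both days, and the log2 fold changes were -2.78 ± 0.23 (adjusted p = 5.7e-12) and -3.44 ± 0.23 (adjusted p = 6.8e-14). Lower levels of MVK in PERK KO were called from day 2 (-0.90 ± 0.21, adjusted p = 0.0011), after 0.10 ± 0.22 at day 0 and 0.52 ± 0.21 at day 1 without a call. MVD, the mevalonate diphosphate decarboxylase, averaged 25.9 ± 0.87 CPM in PERK KO at day 10 and 110.0 ± 20.0 CPM in wild type (SD, n = 3 each), a log2 fold change of -2.09 ± 0.24. Its day 3 call (-0.57 ± 0.23, adjusted p = 0.045) was lost without wild type day 3 replicate 2 or 3 and without any 1 of the PERK KO day 3 libraries (-0.63 to -0.41, adjusted p 0.064 to 0.200). HMGCS1, which makes HMG-CoA, fell most at day 3, with 56.0 ± 7.37 CPM in PERK KO and 133 ± 28.4 CPM in wild type (SD, n = 3 each; -1.25 ± 0.21). By day 10 its log2 fold change was -0.72 ± 0.21, and the groups overlapped, with 155 to 178 CPM in PERK KO and 1 wild type library at 157 CPM. IDI1, the isopentenyl diphosphate isomerase, was lower at day 3 (-1.18 ± 0.22), day 5 (-0.76 ± 0.21) and day 10 (-1.21 ± 0.21).

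ACAT2 and PMVK departed from the other mevalonate genes early on. ACAT2 had 190.3, 481 and 191 CPM in PERK KO at day 0, against 159, 127 and 118 CPM in wild type, and the high value was the library that stood apart. At day 1 it had 89.7, 101 and 86.6 CPM in PERK KO and 214, 179 and 166 CPM in wild type (-1.02 ± 0.21, adjusted p = 9.7e-04). In the main fit ACAT2 was the only synthesis enzyme called lower that day. With only the compared libraries, 13 members of all classes were called lower and 8 higher at day 1. Without the 2 libraries that stood apart, 4 were lower and 5 higher. How many of these were enzymes is not given here. PMVK, phosphomevalonate kinase, had 20.6, 68.6 and 23.5 CPM in PERK KO at day 0 and 22.1, 17.2 and 16.1 CPM in wild type. Without the library at 68.6 CPM its day 0 log2 fold change was 0.26 (adjusted p = 0.380), and with it 1.02 ± 0.28.

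Squalene is made by FDFT1, oxidised by SQLE and closed to lanosterol by LSS. SQLE (ENSG00000104549.11, chromosome 8, 124998497 to 125022283, plus strand) had 63.8, 59.6 and 63.2 CPM in PERK KO at day 10 and 250.1, 273 and 206 CPM in wild type. The groups lay far apart beside their spread, and the log2 fold change was -1.97 ± 0.11 (adjusted p = 8.6e-16). SQLE changed side over time. It was higher in PERK KO at day 0 (0.34 ± 0.11, adjusted p = 0.021) and day 1 (0.39 ± 0.11, adjusted p = 0.0087) and lower at day 2 (-0.34 ± 0.11), day 3 (-0.61 ± 0.11) and day 5 (-1.17 ± 0.11). Its small differences at days 0, 1 and 2 were each lost without 1 library: 0.29 and 0.31 without wild type day 0 replicate 1 or 3 (adjusted p = 0.089 and 0.084), 0.33 and 0.35 without replicate 3 of wild type or PERK KO day 1 (adjusted p = 0.070 and 0.053), and -0.28 without wild type day 2 replicate 1 (adjusted p = 0.053). FDFT1 was lower in PERK KO at day 3 (-0.69 ± 0.20), day 5 (-1.65 ± 0.21) and day 10 (-1.34 ± 0.21). At day 0 it had 556, 1342 and 620.1 CPM in PERK KO, against 516, 480.0 and 479 CPM in wild type, and without the library at 1342 CPM that call was lost (0.26, adjusted p = 0.167). LSS was lower in PERK KO at 5 of the 6 days, day 1 being the exception, with log2 fold changes between -0.95 and -0.38 where called. Its day 0 call was lost when any 1 of the 6 day 0 libraries was left out (adjusted p 0.060 to 0.106). Without wild type day 3 replicate 3 the day 3 calls of FDFT1 (-0.52, adjusted p = 0.054) and LSS (-0.30, adjusted p = 0.074) were lost, and the day 2 call of LSS was lost without wild type day 2 replicate 3 (-0.26, adjusted p = 0.136) or PERK KO day 2 replicate 1 (-0.39, adjusted p = 0.055).

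Past lanosterol, CYP51A1 removes the first methyl group, TM7SF2 reduces the double bond this leaves, MSMO1, NSDHL and HSD17B7 remove the methyl groups at carbon 4, EBP shifts a double bond, SC5D adds one and DHCR7 makes the last reduction to cholesterol. CYP51A1 (ENSG00000001630.16, chromosome 7, 92112151 to 92134803, minus strand) had 28.2, 24.6 and 27.8 CPM in PERK KO at day 10 and 177, 192 and 114 CPM in wild type. The log2 fold change was -2.58 ± 0.16 (adjusted p = 1.6e-14), and it followed a higher level in PERK KO at day 0, with 119, 122 and 113 CPM in PERK KO and 77.0, 70.3 and 79.4 CPM in wild type (0.64 ± 0.15, adjusted p = 0.0030). The day 0 groups did not overlap and the library that stood apart lay with the other PERK KO values, but in a fit of the 6 day 0 libraries alone the adjusted p was 0.063. MSMO1 (ENSG00000052802.12, chromosome 4, 165327623 to 165343160, plus strand) had 54.1, 46.3 and 53.2 CPM in PERK KO at day 10 and 336, 433 and 229 CPM in wild type. This 6.49-fold difference (-2.70 ± 0.19, adjusted p = 1.8e-13) came after smaller ones at day 5 (-1.67 ± 0.18) and day 3 (-1.0 ± 0.18). DHCR7 (ENSG00000172893.15, chromosome 11, 71428193 to 71452868, minus strand) had 71.1, 69.0 and 69.5 CPM in PERK KO at day 10 and 276, 356 and 385 CPM in wild type. No PERK KO library came near the lowest wild type one, at a log2 fold change of -2.28 ± 0.16 (adjusted p = 1.6e-13).

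SC5D had an uneven course. It had 31.7, 23.9 and 23.1 CPM in PERK KO at day 3 against 199.8, 107 and 84.9 CPM in wild type (-2.32 ± 0.28, adjusted p = 2.7e-08), then -1.27 ± 0.27 at day 5 and -2.36 ± 0.28 at day 10. NSDHL, HSD17B7 and EBP were lower in PERK KO at days 5 and 10, with day 10 log2 fold changes of -1.44 ± 0.16, -0.93 ± 0.14 and -1.53 ± 0.30. With a transcript length offset the day 5 call of HSD17B7 was lost (-0.35, adjusted p = 0.166). TM7SF2 went the other way first. At day 2 it had 51.3, 53.3 and 51.9 CPM in PERK KO and 13.1, 12.03 and 18.3 CPM in wild type (1.85 ± 0.20, adjusted p = 8.1e-09), and it was higher at day 3 too (0.85 ± 0.20) before being lower at day 5 (-0.72 ± 0.20) and day 10 (-0.82 ± 0.19).

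Some of these counts are uncertain, because the sources used here do not say whether counting used strand. TM7SF2 overlaps VPS51 on the same strand, and VPS51 holds 110624 counts over the 36 libraries beside 30440 for TM7SF2. MVK overlaps MMAB (19587 against 21130 counts) and ACAT2 overlaps SOD2, SOD2-OT1 and TCP1 (145930 against 74753), all on opposite strands. HSD17B7 has 2 named pseudogenes, which took 752 counts beside its 8947.

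**Figure D2:**
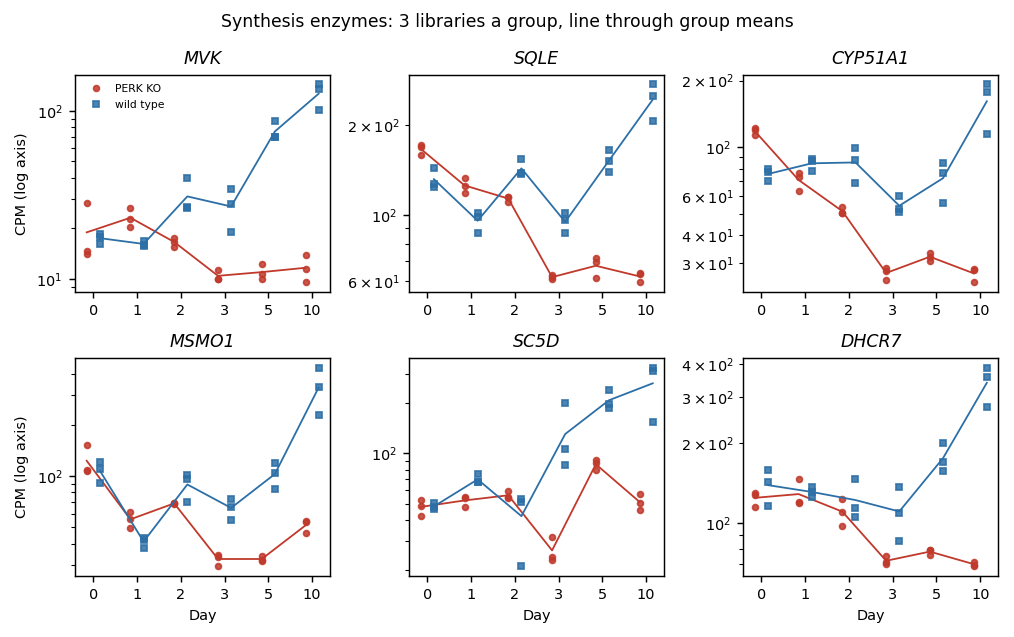
CPM (scaled for library size, log axis) of 6 synthesis enzymes in every library by day, with PERK KO as red circles left of wild type as blue squares and a line through each group's mean of 3 libraries. MVK lies between 9.59 and 13.8 CPM in PERK KO and between 69.7 and 144 CPM in wild type at days 5 and 10, and SQLE and CYP51A1 start higher in PERK KO and end lower.

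Promoters of MVK and MSMO1, which had the largest day 10 differences among the enzymes, are shown for the CCAAT boxes they carry. NF-Y, a factor that works beside SREBP at many sterol genes, binds CCAAT. RefSeq promoter sequences (GRCh38.p14, 250 bases before to 50 bases after the annotated start) were matched for 25 of the 29 members. CCAAT on either strand stood in 17 of the 25, and in 35.7% of all 27305 promoters of the same length. PMVK, IDI1 and CYP51A1 were the enzymes with a matched promoter and no CCAAT in it. Printed 5′ to 3′ on the gene's strand, with CCAAT or its reverse complement ATTGG in capitals, MVK (chr12:109573544-109573843, plus strand) held 5 copies and MSMO1 (chr4:165327419-165327718, plus strand) 4.
MVK: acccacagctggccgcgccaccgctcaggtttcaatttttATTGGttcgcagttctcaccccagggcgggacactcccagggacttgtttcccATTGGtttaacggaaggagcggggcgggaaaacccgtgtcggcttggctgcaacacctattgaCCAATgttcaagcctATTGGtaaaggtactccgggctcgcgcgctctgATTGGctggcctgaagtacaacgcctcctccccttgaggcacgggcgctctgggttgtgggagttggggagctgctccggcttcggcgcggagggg
MSMO1: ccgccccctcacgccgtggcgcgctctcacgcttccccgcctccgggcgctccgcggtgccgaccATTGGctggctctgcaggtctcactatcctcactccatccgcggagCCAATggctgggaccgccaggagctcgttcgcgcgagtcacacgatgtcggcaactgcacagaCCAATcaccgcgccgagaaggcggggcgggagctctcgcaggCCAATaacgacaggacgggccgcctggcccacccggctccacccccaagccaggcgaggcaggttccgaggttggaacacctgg
These are matches of letters, and binding was not measured.

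SREBP control genes did not move as 1 group. INSIG1 and SREBF2 were lower in PERK KO at days 3, 5 and 10, SCAP at days 2 and 10 and SREBF1 at days 0 and 3, while INSIG2 was higher at day 2. Over days 0, 1, 2, 3, 5 and 10, 1, 0, 1, 3, 2 and 3 of the 5 were called lower and 1, 1, 1, 0, 0 and 0 higher. Of all genes, 8.64%, 7.72%, 21.7%, 23.2%, 30.5% and 34.0% were lower at those days. The shares higher were 12.5%, 8.11%, 20.9%, 21.9%, 28.6% and 33.3%.

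INSIG1 (ENSG00000186480.12, chromosome 7, 155297776 to 155310235, plus strand) had the largest change of all 29 members. At day 10 it had 39.3, 39.5 and 34.5 CPM in PERK KO and 396, 629.8 and 302 CPM in wild type. The wild type libraries were widely spread, yet the lowest of them stood well above all PERK KO libraries, at a log2 fold change of -3.55 ± 0.19 (11.7-fold, adjusted p = 2.8e-16). At day 5 INSIG1 had 28.7, 25.6 and 25.3 CPM in PERK KO and 92.8, 105 and 106 CPM in wild type (-1.93 ± 0.18). Day 3 gave -1.25 ± 0.18 and day 2, with no call, -0.31 ± 0.17 (adjusted p = 0.139). The order was the other way at day 1, when it had 55.2, 54.1 and 57.2 CPM in PERK KO and 34.3, 33.1 and 29.6 CPM in wild type (0.78 ± 0.17, adjusted p = 0.0015). The higher day 0 level (0.49 ± 0.17, adjusted p = 0.042) was 0.28 without PERK KO day 0 replicate 2 (adjusted p = 0.264). That call was also lost without wild type replicate 1, 2 or 3 of the day (0.39, 0.53 and 0.54, adjusted p = 0.166, 0.068 and 0.067).

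SREBF2, which encodes SREBP-2 (ENSG00000198911.11, chromosome 22, 41833079 to 41907308, plus strand), had 227, 223 and 220.1 CPM in PERK KO at day 5 and 787, 663 and 608 CPM in wild type. The groups stood apart by more than the whole range of either (-1.62 ± 0.14, adjusted p = 2.2e-11). Day 3 gave -1.07 ± 0.14 and day 10 gave -1.37 ± 0.14, with 352, 366 and 362 CPM in PERK KO at day 10 and 799, 881 and 1101 CPM in wild type. Days 0, 1 and 2 had no call (-0.10 ± 0.14, 0.17 ± 0.14 and -0.23 ± 0.14).

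SREBF1, which encodes the SREBP-1 forms that favour fatty acid genes, had 74.4, 79.8 and 70.6 CPM in PERK KO at day 0 and 134, 132 and 120.1 CPM in wild type (-0.78 ± 0.14, adjusted p = 1.6e-04). It was lower again at day 3 (-0.65 ± 0.14), and at day 10 was -0.30 ± 0.14 (adjusted p = 0.062). RAI1, on the opposite strand, and 2 miRNA entries overlap it, with 48761 counts together beside 66122. SCAP had log2 fold changes of -0.66 ± 0.17 at day 2 and -0.77 ± 0.17 at day 10. INSIG2, the INSIG gene that is not a SREBP target, had a mean of 18.2 ± 3.75 CPM in PERK KO at day 10 and 16.0 ± 4.87 CPM in wild type (SD, n = 3 each), a difference inside the spread (0.18 ± 0.24, adjusted p = 0.513).

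**Figure D3:**
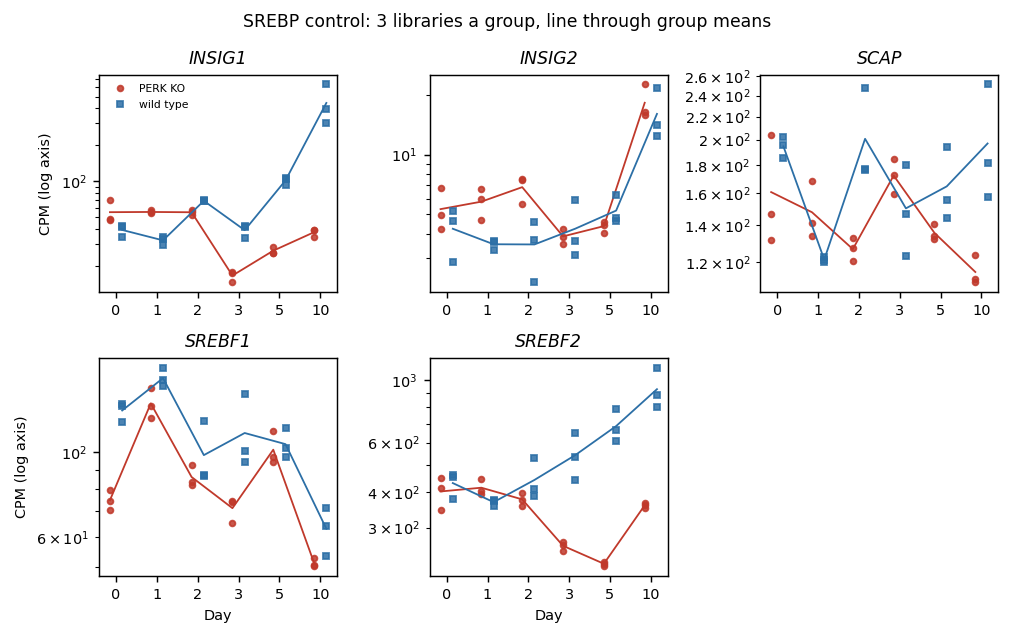
CPM (log axis) of the 5 SREBP control genes in every library by day, with PERK KO as red circles left of wild type as blue squares and a line through each group's mean of 3 libraries. INSIG1 is higher in PERK KO at day 1 and lower from day 3, SREBF2 is lower from day 3, and INSIG2 overlaps between the genotypes at day 10, at means of 18.2 and 16.0 CPM.

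SREBF2 was the only member promoter of the 25 with the sterol regulatory element searched as TCACNCCAC on either strand, which stood in 1.15% of all promoters. Its shorter core CACNCCAC stood in SC5D, INSIG1, SREBF2 and ABCA1, and in 5.74% of all. Capitals mark the element or the core, and CCAAT or ATTGG, in INSIG1 (chr7:155297628-155297927, plus strand) and SREBF2 (chr22:41832855-41833154, plus strand).
INSIG1: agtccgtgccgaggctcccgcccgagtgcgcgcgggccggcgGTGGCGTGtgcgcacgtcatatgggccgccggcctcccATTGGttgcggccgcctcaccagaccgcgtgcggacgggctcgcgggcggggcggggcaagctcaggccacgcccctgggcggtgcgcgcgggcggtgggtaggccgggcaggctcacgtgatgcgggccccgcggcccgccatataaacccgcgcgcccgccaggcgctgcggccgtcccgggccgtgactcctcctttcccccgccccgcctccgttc
SREBF2: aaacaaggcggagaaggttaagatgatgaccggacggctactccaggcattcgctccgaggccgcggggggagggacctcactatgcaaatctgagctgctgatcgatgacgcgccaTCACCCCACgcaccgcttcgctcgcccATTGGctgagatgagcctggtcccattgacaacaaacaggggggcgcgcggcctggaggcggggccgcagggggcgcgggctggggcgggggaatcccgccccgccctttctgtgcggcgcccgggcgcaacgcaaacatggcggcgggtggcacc
The SREBF2 element begins at position -133 from the annotated start and its ATTGG at -106. The SREBF2 core lies inside the element. GGGCGG, the Sp1 box, was in 24 of 25 member promoters and 44.6% of all, and TGATGNAA, a core bound by ATF4 with C/EBP partners, in 0 of 25 and 3.67% of all, both on either strand. Windows of this length leave out distal elements, and a missing match says nothing of a factor.

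Transport genes did not move as 1 group. NPC1, NPC2 and ABCG1 were lower in PERK KO at days 3, 5 and 10, ABCA1 was higher at days 2 and 3, and MYLIP changed side more than once. Of 6 genes, 4 were lower and 2 higher at day 3 (background 23.2% and 21.9%), 3 lower and 1 higher at day 5 (30.5% and 28.6%), and 4 lower and 0 higher at day 10 (34.0% and 33.3%).

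NPC2, which hands cholesterol to NPC1 inside the lysosome, had 119, 124 and 125 CPM in PERK KO at day 5 and 712, 586 and 659 CPM in wild type. That 5.33-fold difference (-2.41 ± 0.18, adjusted p = 8.9e-13) was the widest gap of NPC2, between -1.02 ± 0.17 at day 3 and -0.72 ± 0.17 at day 10. Wild type NPC2 peaked at day 5 (652 ± 63.7 CPM, SD, n = 3), while PERK KO group means stayed between 98.4 and 151 CPM from day 0 to day 10. NPC2 was called higher in PERK KO at day 0 (0.69 ± 0.17), a call lost without PERK KO day 0 replicate 2 (0.34, adjusted p = 0.065). ISCA2 and 2 small RNA or pseudogene entries overlap NPC2, with 24648 counts together beside 119898. NPC1, the membrane protein of the same export step, had 42.4, 43.3 and 39.7 CPM in PERK KO at day 10 and 88.7, 97.9 and 107 CPM in wild type (-1.23 ± 0.15, adjusted p = 3.7e-08). It was lower from day 2 on, but its day 3 call (-0.37 ± 0.15, adjusted p = 0.047) did not hold without wild type day 3 replicate 2 or 3 (adjusted p = 0.059 and 0.233) or without PERK KO day 3 replicate 1, 2 or 3 (adjusted p = 0.180, 0.083 and 0.053), at log2 fold changes of -0.42 to -0.25. It was also lost with no filter (adjusted p = 0.139) and with only the compared libraries (adjusted p = 0.060).

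ABCG1, which passes cholesterol to HDL, had the lowest mean of the 29 members (2.58 TPM). In wild type it ran from 0.35 to 0.43 CPM at day 1 to 15.4 to 17.3 CPM at day 5. At day 10 it had 0.94, 0.41 and 0.60 CPM in PERK KO and 4.48, 4.65 and 7.77 CPM in wild type (-3.10 ± 0.30, adjusted p = 1.8e-10). At day 3 it had 4.42, 4.70 and 5.16 CPM in PERK KO and 13.4, 18.6 and 24.0 CPM in wild type (-1.97 ± 0.24). All wild type values were above all PERK KO values at days 2, 3, 5 and 10. ABCA1, which loads cholesterol onto apolipoprotein A1, went the other way at day 2, with 40.5, 31.9 and 35.3 CPM in PERK KO and 12.5, 9.69 and 4.52 CPM in wild type (2.01 ± 0.30, adjusted p = 1.8e-06). Its lowest wild type value was the library that stood apart. At day 3 it was 0.71 ± 0.28 (adjusted p = 0.037), a call lost without wild type day 3 replicate 2 (0.61, adjusted p = 0.131) or 3 (0.55, adjusted p = 0.152) and without PERK KO day 3 replicate 1 (0.64, adjusted p = 0.104) or 2 (0.71, adjusted p = 0.069). At day 10 ABCA1 had 77.1, 66.4 and 83.9 CPM in PERK KO, inside the wild type range of 51.4 to 117 CPM (-0.12 ± 0.28, adjusted p = 0.717).

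STARD4, a cytosolic sterol carrier and SREBP target, was called at day 3 alone, with 11.6, 9.23 and 8.52 CPM in PERK KO and 50.0, 36.7 and 16.8 CPM in wild type (-1.82 ± 0.33, adjusted p = 3.0e-05). The wild type libraries differed widely among themselves and still all stood above PERK KO. STARD4-AS1 overlaps it on the opposite strand, with 10211 counts beside 24157. MYLIP, which marks lipoprotein receptors for degradation, was called at all 6 days: lower in PERK KO at days 1 (-0.95 ± 0.12) and 10 (-0.61 ± 0.11), and higher at days 0, 2, 3 and 5 (0.46, 0.85, 0.69 and 0.53). Its day 0 call was lost with no filter (adjusted p = 0.139) and with only the compared libraries (adjusted p = 0.119).

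**Figure D4:**
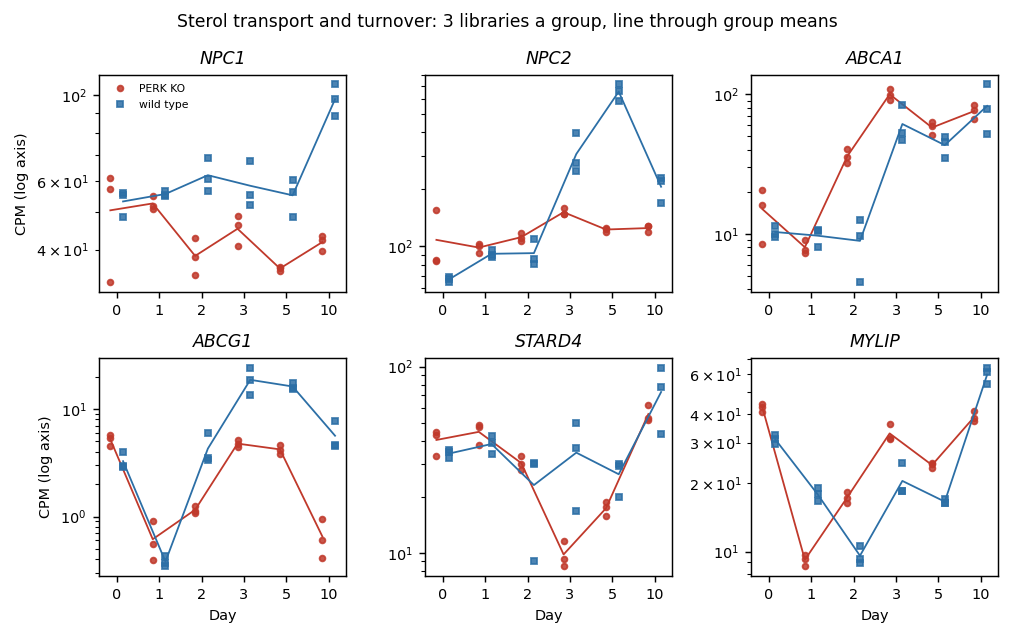
CPM (log axis) of the 6 transport and turnover genes in every library by day, with PERK KO as red circles left of wild type as blue squares and a line through each group's mean of 3 libraries. NPC2 stands at 119 to 125 CPM in PERK KO at day 5 and 586 to 712 CPM in wild type, while ABCA1 is higher in PERK KO at day 2 and overlaps at day 10.

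The courses since day 0 differed between the genotypes. At day 10 against day 0, PERK KO had 2 members higher and 19 lower (background 61.8%, of which 29.9% higher and 31.9% lower), and wild type had 18 higher and 3 lower (background 69.2%, of which 34.9% higher and 34.3% lower). Without the 2 libraries that stood apart these counts were 4 and 17 in PERK KO and 20 and 4 in wild type. The shares above are of the main fit, and the all-gene shares without those 2 libraries are not given here. Day 10 contrasts of a genotype share the day 0 libraries with its other contrasts. The change since day 0 differed between the genotypes for 25 of 29 members at day 10. Of these, 24 were more negative in PERK KO, all 18 enzymes among them, and SREBF1 was more positive (0.48 ± 0.20, adjusted p = 0.039). FDPS (-0.11, adjusted p = 0.625) and TM7SF2 (-0.34, adjusted p = 0.201) lost this call without PERK KO day 0 replicate 2. Among all genes, 29.4% were more negative and 26.3% more positive, 55.7% in all. At days 1, 2, 3 and 5 that test called 7, 11, 16 and 21 members more negative, beside 12.9%, 19.5%, 20.9% and 27.0% of all genes, and 1, 3, 1 and 1 more positive, beside 10.2%, 16.2%, 18.0% and 23.2%. In either direction it called 23.1%, 35.7%, 38.9% and 50.1% of all genes at those days.

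INSIG1 changed by -0.55 ± 0.17 in PERK KO from day 0 to day 10 and by 3.49 ± 0.19 in wild type, both on the log2 scale. MVK changed by -0.69 ± 0.22 in PERK KO and 2.86 ± 0.23 in wild type, and CYP51A1 by -2.13 ± 0.16 in PERK KO and 1.09 ± 0.15 in wild type. The other 5 members called in both genotypes with opposite signs were IDI1, SQLE, MSMO1, DHCR7 and ABCG1. How many of all genes had such opposite calls was not counted. The wild type rise of IDI1 was near the threshold (0.47 ± 0.21, adjusted p = 0.0475). Its groups overlapped, with 1 wild type day 10 library at 45.6 CPM and the wild type day 0 libraries at 51.0 to 54.5 CPM. Without PERK KO day 0 replicate 2 the PERK KO changes of INSIG1 (-0.34, adjusted p = 0.099), MVK (-0.29, adjusted p = 0.195) and IDI1 (-0.54, adjusted p = 0.062) were no longer called. SC5D and NPC2 had no call in PERK KO (0.10 ± 0.27 and 0.21 ± 0.17; NPC2 rose by 0.57 without that library, adjusted p = 6.1e-04) and rose in wild type (2.45 ± 0.28 and 1.62 ± 0.18), and the difference passed its own test for both. FDFT1, EBP, MVD and PMVK fell by 2.18, 2.05, 2.00 and 1.93 in PERK KO and had no call in wild type (-0.06, 0.09, 0.25 and 0.15), again with a called difference. The PERK KO day 0 library that stood apart was the highest of its group for all 4, and without it their PERK KO log2 changes were -1.66, -1.08, -1.43 and -1.16, all still called. ACAT2 and FDPS fell in both genotypes, by 2.50 and 1.90 in PERK KO and by 1.14 and 1.20 in wild type. Without that library their PERK KO log2 changes were -1.90 and -1.33. INSIG2 rose in both, by 1.79 ± 0.25 in PERK KO and 1.92 ± 0.26 in wild type (adjusted p of the difference 0.786), as did ABCA1, by 2.32 ± 0.29 in PERK KO and 3.00 ± 0.30 in wild type (adjusted p of the difference 0.158).

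**Figure D5:**
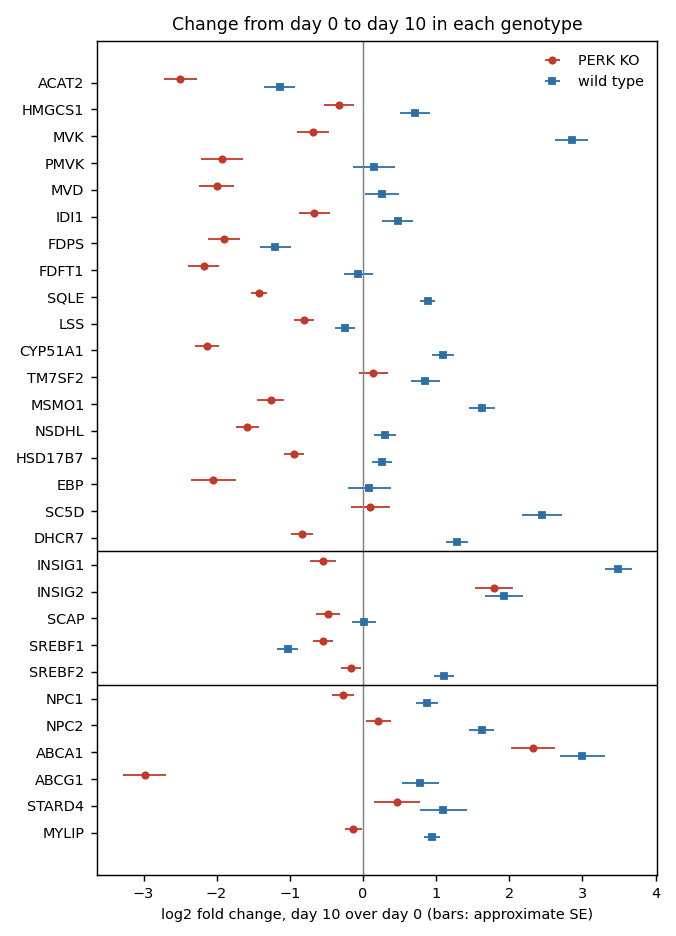
Log2 fold change of day 10 over day 0 for each of the 29 genes, with PERK KO as red circles above wild type as blue squares and bars for the approximate SE. Most PERK KO points lie left of 0 and most wild type points right of it, with INSIG1 at -0.55 and 3.49, and INSIG2 and ABCA1 lie right of 0 in both.

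The courses were not all gradual. In PERK KO, 13 members were lower and 1 higher than at day 0 by day 1 (background 43.1%, of which 25.1% lower and 18.0% higher). At day 2 the counts were 14 and 1 (background 41.4%, of which 23.8% and 17.5%), at day 3 they were 21 and 3 (40.3%, of which 21.8% and 18.5%) and at day 5 they were 20 and 3 (48.8%, of which 27.3% and 21.5%). Wild type had 6 lower and 2 higher at day 1 (background 44.6%, of which 23.7% and 20.9%), 6 and 4 at day 2 (50.5%, of which 25.1% and 25.4%) and 2 and 9 at day 5 (61.9%, of which 30.5% and 31.4%). At day 3 it had 9 lower and 6 higher (56.8%, of which 27.5% and 29.3%), with FDPS at -1.34, FDFT1 at -1.04 and MSMO1 at -0.73. Of the 21 lower in PERK KO at day 3, 17 were enzymes, and TM7SF2 was the enzyme called higher. The median enzyme of each library, set relative to its mean over all libraries, stood at -0.75 to -0.68 in PERK KO day 3 libraries and -0.33 to 0.02 in wild type on the log2 scale. At day 10 it stood at -0.73 to -0.68 in PERK KO and 0.59 to 0.95 in wild type. The PERK KO libraries lay closer together at day 10 than the wild type libraries.

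Neighbouring lipid genes were listed for comparison. Of 12 fatty acid synthesis genes, 9, 6 and 7 were lower in PERK KO at days 3, 5 and 10, with 0, 0 and 2 higher, where all genes had 23.2%, 30.5% and 34.0% lower and 21.9%, 28.6% and 33.3% higher. ACSS2, which makes acetyl-CoA from acetate, averaged 16.1 ± 1.48 CPM in PERK KO at day 10 and 138 ± 23.5 CPM in wild type (SD, n = 3 each; log2 fold change -3.10 ± 0.18). SCD, the stearoyl-CoA desaturase, averaged 799 ± 29.1 CPM in PERK KO at day 10 and 2672 ± 446 CPM in wild type (-1.74 ± 0.14). LPIN1, a phosphatidate phosphatase, and FADS1, a fatty acid desaturase, had their smallest p at day 3 (-2.31 ± 0.16 and -1.25 ± 0.14). Of 10 genes of the isoprenoid branch, which takes farnesyl diphosphate to other products, 1 was lower and 6 were higher in PERK KO at day 5 (background 30.5% and 28.6%), and 3 were lower and 3 higher at day 10, near the background of 34.0% and 33.3%. GGPS1, the geranylgeranyl diphosphate synthase, averaged 33.4 ± 1.94 CPM in PERK KO at day 10 and 11.5 ± 3.16 CPM in wild type (SD, n = 3 each; 1.53 ± 0.24). NUS1, of dolichol synthesis, was higher at day 5 (1.15 ± 0.17), while PDSS2, of coenzyme Q synthesis, was lower at day 10 (-1.32 ± 0.12) and FNTB, a farnesyltransferase subunit, at day 5 (-1.25 ± 0.18). FNTB overlaps a readthrough gene, which makes its count uncertain. Of 23 further sterol handling genes, 13 were lower and 7 higher at day 10, beside 34.0% and 33.3% of all genes, so the share higher was near the background. The lipoprotein receptors differed in sign: SCARB1, the HDL receptor, was lower at day 10 (-2.18 ± 0.15), VLDLR lower at day 5 (-2.42 ± 0.15) and LRP8 higher at day 5 (2.28 ± 0.16).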

How the data were processed

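The mRNA-seq libraries from H1 cells were sequenced paired-end, per the labels. Per the submitters' processing notes, CASAVA, FastQC, STAR and RSEM were used with GRCh38 (hg38). Their versions were not given. The deposited values are RSEM expected counts and TPM per gene, per the file headers, with identifiers of GENCODE release 29.

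Expected counts were rounded, filtered with filterByExpr (19772 genes), scaled by TMM and fitted in edgeR 4.0.16 (R 4.3.3, limma 3.58.1) as 12 groups, with 24 residual degrees of freedom. The quasi-likelihood F test gave p-values adjusted by Benjamini-Hochberg within each of 21 contrasts. CPM are TMM-scaled. Alternatives were RLE scaling, no filter, a filter of 5 CPM in 3 libraries, DESeq2 1.42.0, only the compared libraries, a replicate block, a transcript length offset, and fits without 1 library or without 2 that stood apart. The fit was checked on simulated counts of the day 3 comparison, with 50 genes changed at each size. It recovered 18% of 1.5-fold, 70% of 2-fold and 98% of 4-fold increases, with 4 false calls. A gene without a call may therefore still differ. Figures used Python 3.11.15 and matplotlib 3.10.9.

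The members, lists and tests were chosen with earlier results of these data known. Library values are given for members called with an absolute log2 fold change of at least 1 and no overlap of groups, up to 5 a class by p (values of other members were added after they were seen), and other lists are named by the 4 smallest p, of which 1 gene is not reported here. The design text names other sampling days than the labels, which were used.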

Additional observations from a re-analysis of the deposited data

Results flagged for a closer look

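The change since day 0 differed between the genotypes by the interaction test for 8, 14, 17, 22 and 25 of the 29 members at days 1, 2, 3, 5 and 10. That test called 23.1%, 35.7%, 38.9%, 50.1% and 55.7% of all genes at those days. The day 1 count was near the all-gene share. At day 10, 8 members were called lower than at day 0 in PERK KO and higher in wild type. The share of all genes with such opposite calls was not counted. The difference in the log2 change since day 0, PERK KO minus wild type, was -3.54 for MVK, -1.14 for IDI1, -2.30 for SQLE, -3.23 for CYP51A1, -2.89 for MSMO1, -2.12 for DHCR7, -4.04 for INSIG1 and -3.77 for ABCG1. All of these contrasts share the day 0 libraries. The wild type rise of IDI1 was near the threshold (0.47 ± 0.21, adjusted p = 0.0475), and its day 0 and day 10 libraries overlapped. Without PERK KO day 0 replicate 2 the PERK KO changes of MVK (-0.29, adjusted p = 0.195), IDI1 (-0.54, adjusted p = 0.062) and INSIG1 (-0.34, adjusted p = 0.099) were no longer called. Summed cardiomyocyte, endoderm and liver, stromal, endothelial and blood, and mesendoderm markers were also lower in PERK KO at day 10. Pluripotency and neuroectoderm markers were higher. The part of these cell type differences was not tested.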

How the results depend on the processing

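Of 174 values of PERK KO against wild type by member and day, 98 were called, 81 of them in every fit without 1 library and 80 under every other alternative; 35 of the 76 uncalled ones were called under some alternative. The day 0 and day 1 counts depended most on the processing. At day 0, 11 members were called beside 4177 of all genes. No filter gave 7 beside 3687 of all genes, and only the compared libraries 1 beside 304. A replicate block within that day called 0 of 29 members and 0 of all genes (edgeR, 3 members had an unadjusted p under 0.05). At day 1, 4 members were called beside 3129 of all genes. The fit without the 2 libraries that stood apart gave 9 beside 4931 of all genes, and only the compared libraries 21 beside 7355. The replicate block within the day gave 20 beside 7278, and DESeq2 7 beside 3625. Against day 0, PERK KO day 1 had 14 members called (8517 of all genes), and 9 with only the compared libraries (4268 of all genes). Wild type day 5 had 11 (12229 of all genes), and 18 with only the compared libraries (12325). Wild type day 1 had 8 (8819 of all genes), 19 with only the compared libraries (11201) and 16 without those 2 libraries (10733). The interaction at day 1 called 8 (4559 of all genes), and 5 with only the compared libraries (3603 of all genes). At day 2 it called 14 (7063 of all genes), and 8 with only the compared libraries (4272). FDPS at day 0 turned to -0.33 (adjusted p = 0.038) without the 2 libraries that stood apart, and was 0.24 (adjusted p = 0.460) with them. The cause was not tested.

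Without 1 library, members called in PERK KO against wild type ranged from 6 to 11, 3 to 5, 13 to 14, 17 to 23, 23 to 23 and 23 to 25 over days 0, 1, 2, 3, 5 and 10, and the interaction from 5 to 10 at day 1. The day 0 count was 6 without PERK KO replicate 2 (4545 of all genes) and 6 without wild type replicate 3 (2958 of all genes). Same-numbered replicates deviated together in some days only (correlations -0.27 to 0.59). With 3 libraries a group these correlations cannot decide whether the numbers pair the libraries. The replicate block in all groups gave 11, 4, 15, 22, 23 and 23 calls by day. It changed no call of a member in PERK KO against wild type. ABCG1 and INSIG2, with the lowest levels, have the least depth behind their values.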
